A study of Mus musculus with 8 samples.

Results

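The 51 genes described here are chromatin regulators of the embryonic mouse retina, and they comprise enzymes that write or remove DNA and histone methylation, Polycomb proteins, subunits of the BAF and CHD remodeling complexes, and histone deacetylases. They were listed by symbol and matched to the symbols of the count table, where all 51 of them were found among 28432 genes, and all 51 were among the 13891 genes with enough reads to be tested. RNA was sequenced from the retinas of 4 *Lhx2* CKO embryos (*Lhx2* flox/-; *Hes1* CreERT2/+) and 4 control embryos (*Lhx2* flox/+; *Hes1* CreERT2/+), each sample being both retinas of 1 embryo. Every embryo, control or CKO, also carried *Rosa* ai14/+, a Cre reporter used to pick recombined embryos, and was exposed to tamoxifen (0.15 to 0.2 mg per g of body weight, given to the dam) at E11.5 and collected at E15.5. CreERT2 is expressed from the *Hes1* locus, so that deletion begins in retinal progenitor cells (RPCs) and is inherited by the neurons they produce, and control retinas keep 1 intact *Lhx2* allele after recombination. *Lhx2* encodes a LIM homeodomain transcription factor, and the comparison asks which chromatin regulators differ in level after its loss, including whether progenitor and neuronal BAF subunits differ in balance.

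Chromatin regulators set which genes a cell can use. Dnmt1 and Uhrf1 copy DNA methylation onto new strands as cells replicate, the Polycomb complexes PRC2 and PRC1 place repressive marks on histones H3 and H2A, and BAF complexes slide or evict nucleosomes with the energy of ATP. In the developing nervous system, BAF complexes are known to exchange subunits as progenitors leave the cell cycle: Actl6a, Phf10 and Ss18 give way to Actl6b, Dpf1, Dpf3 and Ss18l1.

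Reads summed to 13955259 to 19099937 per CKO sample and 13143587 to 15063867 per control sample. *Lhx2* itself had 2557 to 2868 normalized counts in CKO retinas and 3081 to 3631 in controls, a count over the whole gene that also reads the undeleted exons and so does not measure the deletion. CKO replicate 1 and control replicate 3 stood apart from their group on the second principal component (18% of variance), and by *Xist* and Y-linked reads the embryos were female in CKO replicate 1 and control replicates 1 and 4. Retinal identity was clear in both genotypes, and composition markers moved between them. Of 14 RPC markers 9 fell and 1, *Sfrp2*, rose, with summed normalized counts of 60930 to 70560 in CKO and 106600 to 118000 in control retinas, and of 16 S phase genes 13 fell (21550 to 25520 in CKO, 33630 to 36180 in control). Of 14 neuron markers 7 rose and none fell (133900 to 143000 in CKO, 98860 to 110900 in control). Markers of other tissues were low: lens genes summed to 55.1 to 110 in CKO and 34.4 to 85.6 in control, periocular mesenchyme to 39.7 to 113 in CKO and 94.2 to 174 in control (1 gene, *Col1a2*, fell), pigment epithelium to 490 to 964 in CKO and 384 to 502 in control (*Rlbp1* rose, *Pmel* fell, *Tyr*, *Tyrp1*, *Dct* and *Pmel* lay below every control in each CKO sample, and the higher CKO sum came from *Rlbp1* and, in CKO replicate 4, *Ttr* at 379.9), blood to 585 to 1889 in CKO and 376 to 2350 in control, and macrophages to 668 to 899 in CKO and 812 to 993 in control. Endothelial genes summed to 2660 to 3529 in CKO and 4364 to 4669 in control, mostly *Kdr*, which fell together with *Cldn5*. The 5 other endothelial genes tested did not pass and overlapped between the genotypes. Their log2FC values were 0.05 for *Pecam1*, 0.09 for *Cdh5*, 0.08 for *Tie1*, -0.03 for *Esam* and 0.34 for *Emcn*. The sum therefore mainly follows *Kdr*. No marker of the lens, blood or macrophages passed the edgeR test, and DESeq2 called 1 lens gene. At an unadjusted edgeR p below 0.05 these were 1, 0 and 0, beside at least 6008 of the 13891 genes tested. No marker in these lists was at 0 in every sample. In bulk retina, fewer cells of a type and less RNA per cell cannot be told apart, which applies to every result that follows.

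Across the 51 chromatin regulators, 7 rose in the CKO (13.7%) and 6 fell (11.8%), while 38 did not pass the edgeR quasi-likelihood test at an adjusted p below 0.001. Among all 13891 genes tested, 3.64% were higher and 4.97% were lower at the same cutoff. Members were chosen with earlier results of these data known. The shares here and below therefore describe the list and do not show that chromatin regulators change more often than other genes. Of 105 other chromatin genes tested, 5 were higher and 4 were lower. The members are mostly well expressed genes, with a median of 2363 normalized counts against 499 for all genes tested, and depth helps a gene to pass. Of the members averaging 1000 normalized counts or more, 5 of 38 were higher (13.2%) and 6 of 38 were lower (15.8%), beside 6.69% higher and 5.45% lower of the 4257 such genes. At an adjusted p below 0.05, 15 members were higher (29.4%) and 12 were lower (23.5%), beside 15.9% and 17.4% of all genes. In 17 members (33.3%) all 4 CKO samples lay above all 4 controls, beside 15.9% of all genes, and in 13 (25.5%) they lay below, beside 17.9%. The differences were small: the log2FC (CKO over control) ran from -0.74 for *Uhrf1* to 0.70 for *Hdac9*, 0.60-fold to 1.62-fold, no member differed by more than 2-fold, and the median log2FC was 0.10 over the members and 0.005 over all genes tested.

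**Figure D1:**
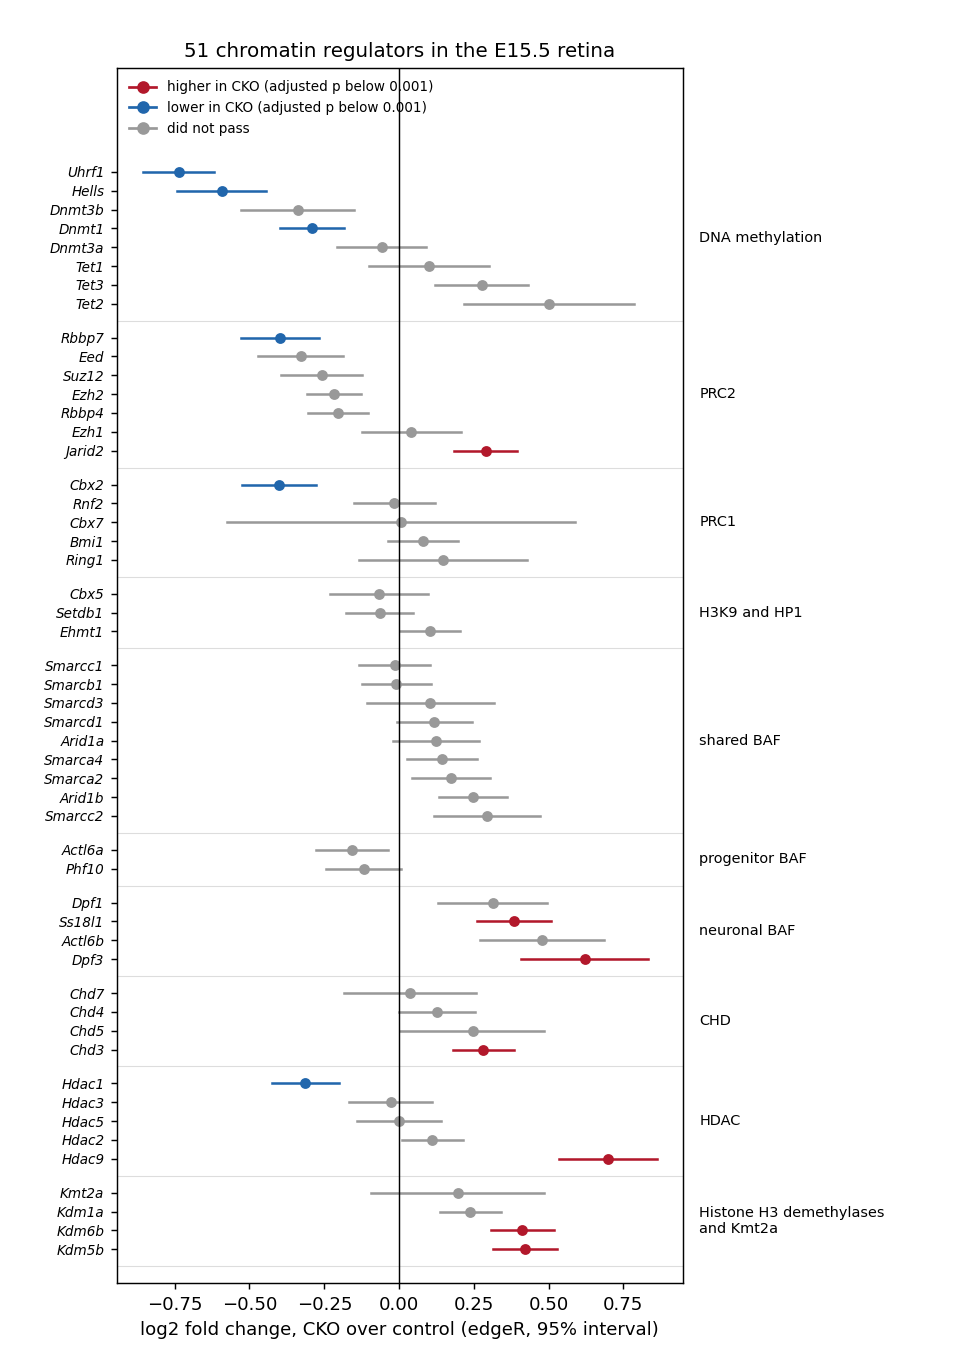
Log2 fold change of each of the 51 chromatin regulators in CKO over control retina at E15.5, with the 95% interval from edgeR (n = 4 per genotype), grouped by function. Red marks the 7 members that rose and blue the 6 that fell at an adjusted p below 0.001. The neuronal BAF subunits all sit to the right of 0 and both progenitor BAF subunits to the left.

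The calls differed in how firmly they held when 1 embryo was left out (8 fits). *Uhrf1*, *Hells*, *Hdac9*, *Kdm5b* and *Kdm6b* passed in all 8. *Dnmt1*, *Jarid2* and *Chd3* passed only without control replicate 3 and lost the call without any other sample, with edgeR adjusted p-values up to 0.0046, 0.0047 and 0.0046. *Hdac1* passed only without control replicate 3 or CKO replicate 1 (otherwise up to 0.0044), *Dpf3* only without control replicate 3 or 4 (up to 0.0023), *Cbx2* only without control replicate 2, control replicate 3 or CKO replicate 1 (up to 0.0016), and *Rbbp7* and *Ss18l1* only without control replicate 3, CKO replicate 1 or CKO replicate 3 (up to 0.0022 and 0.0024). Omitting control replicate 3 gave 9 members higher and 7 lower, and omitting CKO replicate 1 gave 4 higher and 5 lower. Omitting control replicate 1, CKO replicate 2 or CKO replicate 4 gave 3 higher and 2 lower in each case, control replicate 2 gave 3 and 3, control replicate 4 gave 4 and 2, and CKO replicate 3 gave 4 and 3. Calls over all genes tested moved as well, with 264 to 707 higher and 422 to 846 lower when 1 sample was left out. With all 8 samples these were 505 and 691, so lost calls were not particular to the members. With embryo sex as a covariate 5 members were higher and 4 were lower, and *Dnmt1*, *Jarid2*, *Chd3* and *Hdac1* no longer passed. The count over all genes in the fit with sex is not given here. Each of the 13 kept its direction in every fit.

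**Figure D2:**
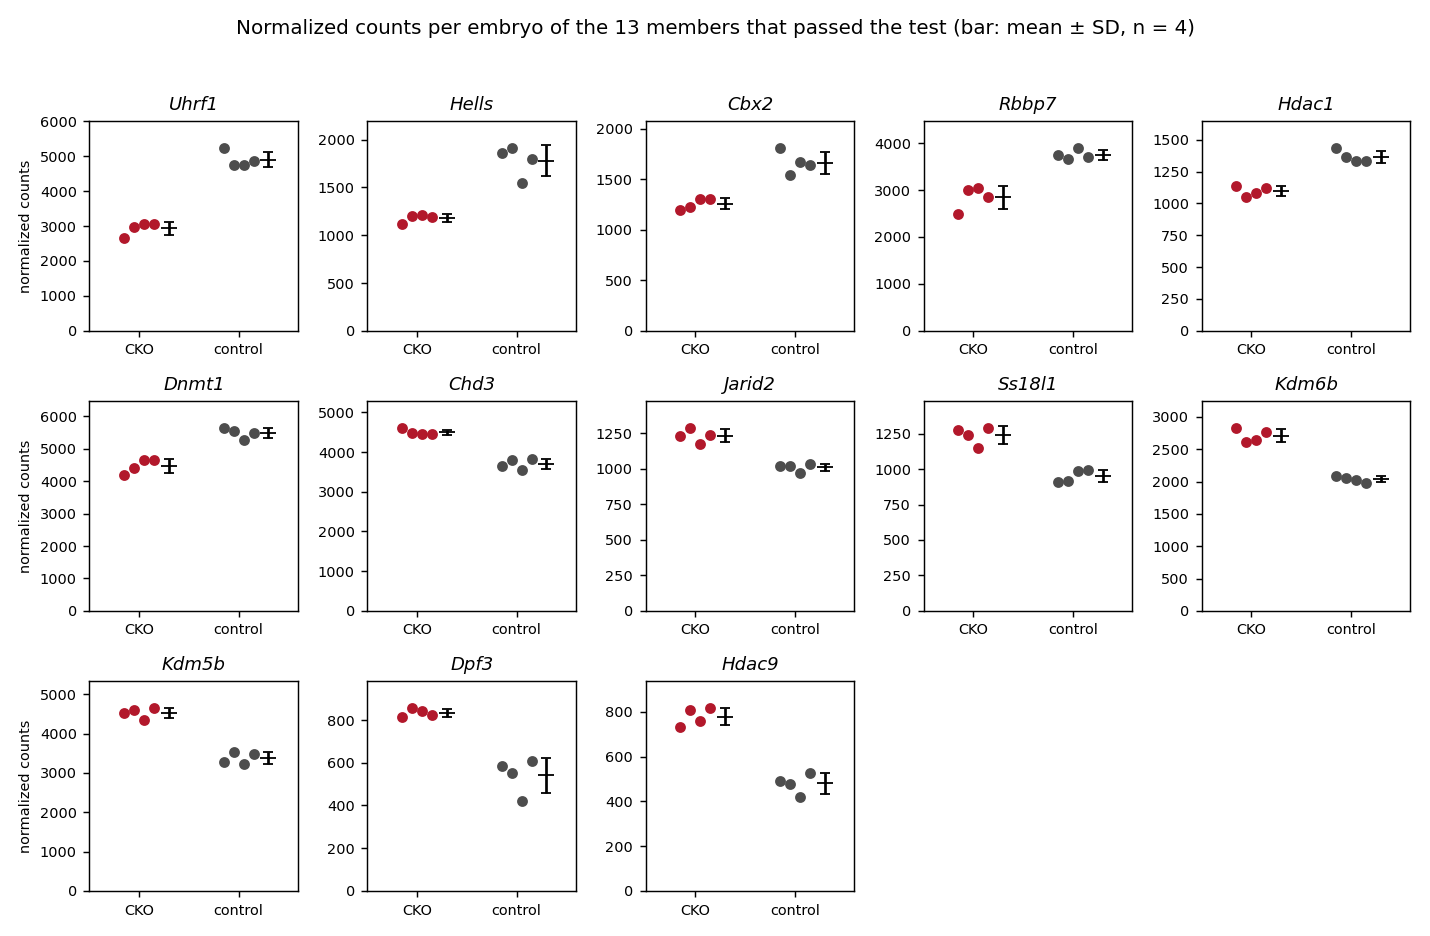
Normalized counts of the 13 members that passed the test, in each CKO and control embryo, with mean ± SD (n = 4) beside the points and each axis starting at 0. The 4 CKO points lie entirely below the 4 control points for *Uhrf1*, *Hells*, *Cbx2*, *Rbbp7*, *Hdac1* and *Dnmt1*, and entirely above them for the other 7 genes.

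The genes that maintain DNA methylation were lower in the CKO. Of 8 members with roles in DNA methylation, 3 fell, none rose and 5 did not pass (median log2FC -0.17). *Uhrf1*, which recognizes half-methylated CpG sites and recruits Dnmt1 to them, had 2664, 2974, 3046 and 3070 normalized counts in CKO replicates 1 to 4, against 5224, 4763, 4749 and 4873 in control replicates 1 to 4. The genotypes were far apart, at 2938 ± 188 in CKO and 4902 ± 221 in control (SD, n = 4 each), with a log2FC of -0.74 (SE 0.05, edgeR adjusted p = 3.4e-06). *Hells*, an SNF2-family remodeler needed for methylation of repeats, had 1115, 1201, 1214 and 1190 normalized counts in the CKO, against 1862, 1908, 1550 and 1802 in controls, where control replicate 3 was the lowest but still above every CKO sample. Its log2FC was -0.59 (SE 0.07, edgeR adjusted p = 6.9e-05), with means of 1180 ± 44.7 in CKO and 1781 ± 159 in control. *Dnmt1*, the maintenance methyltransferase, had 4192, 4414, 4641 and 4641 normalized counts in the CKO and 5626, 5546, 5261 and 5478 in controls, without overlap. Its difference was smaller than that of *Uhrf1*, at a log2FC of -0.29 (SE 0.05, edgeR adjusted p = 9.3e-04), with means of 4472 ± 215 in CKO and 5478 ± 157 in control.

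The de novo methyltransferases and the Tet dioxygenases, which oxidize methylcytosine, did not pass the edgeR test, but *Tet2* was called higher by DESeq2 (adjusted p = 4.2e-04) and by edgeR without the expression filter (adjusted p = 7.2e-05). *Dnmt3b* had 335 to 395 normalized counts in CKO and 426 to 531 in control retinas, which did not overlap (log2FC -0.34, edgeR adjusted p = 0.0111). For *Dnmt3a* the genotypes overlapped, with 2865 to 3192 in the CKO and 2747 to 3389 in controls (log2FC -0.06, adjusted p = 0.548). *Tet2* (728 to 988 in CKO, 460 to 697 in control, log2FC 0.50, adjusted p = 0.0113) and *Tet3* (3752 to 3993 in CKO, 2713 to 3432 in control, log2FC 0.28, adjusted p = 0.0108) lay above the controls in every CKO sample, whereas *Tet1* overlapped (1040 to 1107 in CKO, 790 to 1113 in control, log2FC 0.10). The interval of the *Dnmt3a* difference, -0.21 to 0.09 on the log2 scale, includes 0.

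These members were also set against the S phase genes, which were lower in the CKO. Per 1000 normalized counts of the 16 summed S phase genes, *Uhrf1* had 119 to 124 in CKO and 133 to 144 in control retinas, so it lay below the controls on this scale too. *Hells* overlapped, with 47.5 to 51.7 in the CKO and 43.2 to 56.7 in controls. *Dnmt1* lay above the controls on this scale, with 177 to 195 in CKO and 147 to 165 in control. The sum weighs abundant genes more, and the 16 genes ran from -0.69 to 0.03 in log2FC (median -0.59). The lowest of them, that of *Mcm5*, lies within the *Uhrf1* interval of -0.86 to -0.62. The part of the S phase genes in the differences of these members was not tested.

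Short stretches of promoter sequence are shown for the members that hold a word of the E2F type, since E2F factors are known regulators of replication genes and several of the members that fell act during DNA replication. The words TTTGGCGC, TTTCGCGC, TTTCCCGC and TTTGCCGC were searched on both strands of RefSeq promoter windows (GRCm38.p6), which run from 250 bases before to 50 bases after a start site. Windows were matched by symbol for 45 of the 51 members, and those of *Hdac1*, *Hdac3*, *Cbx2*, *Chd3*, *Chd7* and *Kdm6b* were not searched. A word was present in at least 1 window of 7 of the 45 members (15.6%), beside 2.6% of 27025 genes and 2.26% of 32851 windows. They were 3 of the 4 searched members that fell, 0 of the 5 searched members that rose, and 4 of the 36 that did not pass (11.1%). The 27025 genes were not limited to the 13891 with enough reads to be tested. No set matched to the members in expression or base content was searched. The shares are thus not like for like, and any part of E2F factors in the differences was not tested. The 30-base stretches read 5′ to 3′ on the strand of the gene, with the matched word in capitals, and in 1 of the *Dnmt1* stretches the match is to the reverse complement, GCGCGAAA.
*Uhrf1*, chr17:56304117-56304146, plus strand: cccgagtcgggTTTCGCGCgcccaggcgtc
*Hells*, chr19:38930917-38930946, plus strand: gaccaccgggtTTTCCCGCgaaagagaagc
*Dnmt1*, chr9:20952824-20952853, minus strand: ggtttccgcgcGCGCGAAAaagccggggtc
*Dnmt1*, chr9:20952574-20952603, minus strand: gcgcggggcagcgTTTGGCGCgggctgtgc
*Ezh2*, chr6:47595009-47595038, minus strand: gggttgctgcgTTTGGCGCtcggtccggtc
*Suz12*, chr11:79992876-79992905, plus strand: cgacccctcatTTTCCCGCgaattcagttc
*Smarcd1*, chr15:99702145-99702174, plus strand: gtcagcacgccTTTCCCGCtagtcgccccc
*Arid1a*, chr4:133754022-133754051, minus strand: tccctccctccTTTCCCGCcccctccccct
By GENCODE M21, the *Uhrf1* and *Arid1a* words lie in an intron of a longer transcript of the same gene, the *Hells*, *Dnmt1*, *Ezh2* and *Smarcd1* words in non-coding exon sequence of at least 1 transcript, and the *Suz12* word upstream of the gene. The first base of the word lies 185 bases before the start site for *Uhrf1* and 62 bases before it for *Hells*. *Dnmt1* has 3 RefSeq windows, and both words lie in the same one. The homeodomain core TAATTA, the same on both strands and in no overlap with the E2F words, was present in 1 member window, that of *Actl6a* (2.22% of the 45 members), beside 6.12% of genes and 5.29% of windows. A match to letters in this window is a description and not a bound site.

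*Ezh2*, *Eed*, *Suz12*, *Rbbp4* and *Rbbp7* lay below every control in each CKO sample, *Ezh1* overlapped, and the accessory subunit *Jarid2* rose. Of 7 PRC2 members, 1 fell, 1 rose and 5 did not pass (median log2FC -0.22), and the summed normalized counts of all 7 were 17470 to 18950 in CKO and 21130 to 21320 in control retinas. *Rbbp7*, a histone-binding WD40 protein that PRC2 shares with other complexes, had 2483, 2993, 3042 and 2858 normalized counts in CKO replicates 1 to 4 and 3754, 3654, 3887 and 3701 in control replicates 1 to 4. The groups did not overlap, at 2844 ± 253 in CKO and 3749 ± 101 in control, and the log2FC was -0.40 (SE 0.06, edgeR adjusted p = 4.1e-04). *Rbbp7* overlaps *Txlng* over 174 exonic bases on the opposite strand, and reads there cannot be assigned in unstranded libraries. *Jarid2*, which helps to bring PRC2 to its targets, had 1232, 1285, 1178 and 1239 normalized counts in the CKO and 1019, 1020, 972 and 1033 in controls. All CKO samples were above all controls, at 1234 ± 43.9 in CKO and 1011 ± 26.9 in control, with a log2FC of 0.29 (SE 0.05, edgeR adjusted p = 9.8e-04).

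*Ezh2*, *Eed*, *Suz12* and *Rbbp4* did not pass the edgeR test at 0.001. DESeq2 called *Ezh2* (adjusted p = 6.3e-06), *Eed* (adjusted p = 2.2e-04) and *Rbbp4* (adjusted p = 3.3e-05) lower, and *Eed* also passed with edgeR without the expression filter. *Ezh2*, the H3K27 methyltransferase of dividing cells, had 3510 to 3627 normalized counts in CKO and 4073 to 4217 in control retinas (log2FC -0.22, edgeR adjusted p = 0.00222). The structural subunits *Eed* (781 to 913 in CKO, 990 to 1136 in control, log2FC -0.33, adjusted p = 0.00247) and *Suz12* (2409 to 2792 in CKO, 2828 to 3308 in control, log2FC -0.26, adjusted p = 0.00733) and the *Rbbp7* paralog *Rbbp4* (6488 to 6979 in CKO, 7571 to 7883 in control, log2FC -0.20, adjusted p = 0.00595) had the same arrangement. Without control replicate 3, *Suz12* passed with an adjusted p of 8.7e-04. *Rbbp4* overlaps *Sync* and *Gm26722* on the opposite strand over a summed 1578 exonic bases. *Ezh1*, the paralog of *Ezh2* found mainly in non-dividing cells, overlapped between the genotypes (401 to 446 in CKO, 381 to 444 in control, log2FC 0.04). Per 1000 summed S phase counts, *Ezh2* (139 to 168 in CKO, 113 to 125 in control) and *Rbbp7* (114 to 120 in CKO, 104 to 109 in control) lay above the controls. Length-corrected levels (TPM, reads per kilobase of exon as a share of their sum in the sample) placed *Ezh2* far above *Ezh1* in both genotypes, at 140 ± 4.20 and 14.9 ± 1.10 TPM in CKO and 162 ± 4.92 and 14.4 ± 1.01 in control retinas.

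In PRC1, which ubiquitinates histone H2A and compacts chromatin, 1 of 5 members fell and 4 did not pass (median log2FC 0.01). *Cbx2*, a chromodomain protein that reads methylated H3K27, had 1197, 1229, 1303 and 1309 normalized counts in the CKO and 1806, 1542, 1676 and 1639 in controls. The genotypes did not overlap, at 1260 ± 55.3 in CKO and 1666 ± 109 in control, with a log2FC of -0.40 (SE 0.06, edgeR adjusted p = 3.0e-04). Per 1000 summed S phase counts, however, *Cbx2* overlapped, with 49.4 to 55.6 in CKO and 45.9 to 49.9 in control. The E3 ligases *Ring1* (480 to 721 in CKO, 461 to 556 in control) and *Rnf2* (2212 to 2583 in CKO, 2229 to 2597 in control) and their partner *Bmi1* (1499 to 1632 in CKO, 1387 to 1537 in control) overlapped between the genotypes. *Cbx7*, another reader, was the least abundant member, with 72.4 to 143 normalized counts in CKO and 83.6 to 180 in control retinas and a log2FC interval of -0.57 to 0.59, too wide to show a difference of the size seen in other members.

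None of the 3 members that act on H3K9 methylation or bind it passed the edgeR test or was called by DESeq2 (median log2FC -0.07). At an unadjusted edgeR p below 0.05 there was 1, beside at least 6008 of the 13891 genes tested. The one with the smallest p, *Ehmt1*, an H3K9 methyltransferase, had 3007, 3145, 3011 and 3191 normalized counts in the CKO and 2978, 2845, 2734 and 2942 in controls. Every CKO sample was above every control, but by little, at 3088 ± 93.7 in CKO and 2875 ± 109 in control (log2FC 0.10, SE 0.05, edgeR adjusted p = 0.0991). *Setdb1*, another H3K9 methyltransferase (2098 to 2239 in CKO, 2142 to 2412 in control), and *Cbx5*, which encodes HP1-alpha (8821 to 9158 in CKO, 7995 to 10200 in control), overlapped, with log2FC intervals of -0.18 to 0.05 and -0.23 to 0.10.

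Of the 9 BAF subunits common to progenitor and neuronal complexes, none passed the edgeR test (median log2FC 0.12), and 1, *Arid1b*, was called by DESeq2. At an unadjusted edgeR p below 0.05, 4 of the 9 were above the controls. At least 6008 of the 13891 genes tested fell below that cutoff, in either direction. Both progenitor subunits had a negative log2FC and did not pass by edgeR or DESeq2 (1 at an unadjusted p below 0.05), and of the 4 neuronal subunits 2 rose and 2 did not pass at 0.001 but had positive values (median log2FC 0.43). The summed normalized counts of the 4 neuronal subunits were 3567 to 4060 in CKO and 2737 to 2928 in control retinas, and those of the 2 progenitor subunits were 2955 to 3236 in CKO and 3393 to 3520 in control.

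Among the neuronal subunits, *Dpf3*, a PHD-finger protein, had 816, 855, 842 and 822 normalized counts in CKO replicates 1 to 4, against 584, 554, 421 and 607 in control replicates 1 to 4. The CKO samples were tightly grouped above the controls, at 834 ± 18 in CKO and 542 ± 83.0 in control, and the log2FC was 0.62 (SE 0.10, edgeR adjusted p = 5.9e-04). *Ss18l1*, a coactivator also called CREST, had 1277, 1241, 1149 and 1287 in the CKO and 912, 913, 984 and 993 in controls, with means of 1239 ± 63.1 in CKO and 951 ± 44.0 in control. It rose without overlap, at a log2FC of 0.39 (SE 0.06, edgeR adjusted p = 3.9e-04). *Actl6b*, the neuronal actin-related subunit, had 1166, 1051, 932 and 1017 in the CKO and 648, 761, 876 and 719 in controls. No sample overlapped, at means of 1042 ± 97.0 in CKO and 751 ± 95.2 in control, but the spread was wide and the test was not passed (log2FC 0.48, SE 0.09, edgeR adjusted p = 0.00261), except without control replicate 3, which held the highest control value, with DESeq2 or with no expression filter. *Dpf1*, the paralog of *Dpf3*, had 801, 707, 644 and 772 in the CKO and 592, 535, 647 and 587 in controls, means of 731 ± 69.7 in CKO and 591 ± 45.8 in control. Here CKO replicate 3 lay just under control replicate 3, and the test was not passed (log2FC 0.31, SE 0.08, edgeR adjusted p = 0.0128). *Dpf1* shares 96 exonic bases with *Gm44632* on the opposite strand.

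Of the progenitor subunits, *Actl6a*, the actin-related protein that Actl6b replaces, had 1594, 1889, 1846 and 1803 normalized counts in the CKO and 2019, 1948, 2061 and 1929 in controls. The groups did not overlap, at 1783 ± 131 in CKO and 1989 ± 61.3 in control, yet the difference was small and did not pass (log2FC -0.16, SE 0.05, edgeR adjusted p = 0.0445). *Phf10*, the double PHD-finger protein that Dpf1 and Dpf3 replace, had 1361, 1347, 1314 and 1339 in the CKO and 1374, 1571, 1370 and 1509 in controls. The closest samples were 1361 in CKO and 1370 in control, with means of 1340 ± 19.7 in CKO and 1456 ± 100 in control (log2FC -0.12, SE 0.06, edgeR adjusted p = 0.137). *Ss18*, which is not among the 51 but is the partner that Ss18l1 replaces, had 1531, 1706, 1623 and 1554 in the CKO and 1905, 1765, 1782 and 1919 in controls, again without overlap (log2FC -0.20, SE 0.05, edgeR adjusted p = 0.0106). *Actl6a* and *Phf10* overlap *Mrpl47* and *1600012H06Rik* on the opposite strand over 452 and 470 exonic bases. For *Dpf2*, another BAF gene outside the 51, the genotypes overlapped (3049 to 3113 in CKO, 2895 to 3149 in control). Its log2FC was 0.03 (edgeR adjusted p = 0.676), and ratios over *Dpf2* were not taken.

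The balance of each neuronal subunit with its progenitor counterpart was taken within each sample as a ratio of reads per kilobase, which needs no scaling between libraries. *Actl6b* to *Actl6a* was 0.666, 0.507, 0.460 and 0.514 in the CKO and 0.293, 0.356, 0.387 and 0.339 in controls. Every CKO ratio was higher, by 0.64 on the log2 scale (mean log2 ratio of reads -0.78 ± 0.23 in CKO and -1.41 ± 0.17 in control). *Dpf3* to *Phf10* was 0.697, 0.738, 0.746 and 0.714 in the CKO and 0.494, 0.410, 0.358 and 0.468 in controls, also without overlap, a log2 difference of 0.75. *Dpf1* to *Phf10* was 0.538, 0.480, 0.448 and 0.527 in the CKO and 0.394, 0.311, 0.432 and 0.356 in controls, which came close but did not overlap, at a log2 difference of 0.42. *Ss18l1* to *Ss18* was 1.81, 1.58, 1.54 and 1.80 in the CKO and 1.04, 1.12, 1.20 and 1.12 in controls, a log2 difference of 0.58. Only this ratio was above 1, and it was above 1 in both genotypes. That holds only after division by the merged exon length, 4343 bases for *Ss18l1* and 9419 for *Ss18*. In reads not divided by length, *Ss18l1* was below *Ss18* in both genotypes. The mean log2 ratio of reads was -0.372 in CKO and -0.955 in control. Which of the 2 is more abundant therefore depends on the length used. Each of the 4 differences had p = 0.0286 by an exact two-sided permutation test over samples (0.0286 after Benjamini-Hochberg adjustment over the 4 ratios), the smallest p that 4 against 4 samples can give. The *Dpf1* to *Phf10* difference had p = 0.0571 by the same exact test, with a log2 difference of 0.34 to 0.47, when any CKO sample or control replicate 2 was left out. The 2 ratios over *Phf10* share that gene and are not independent.

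**Figure D3:**
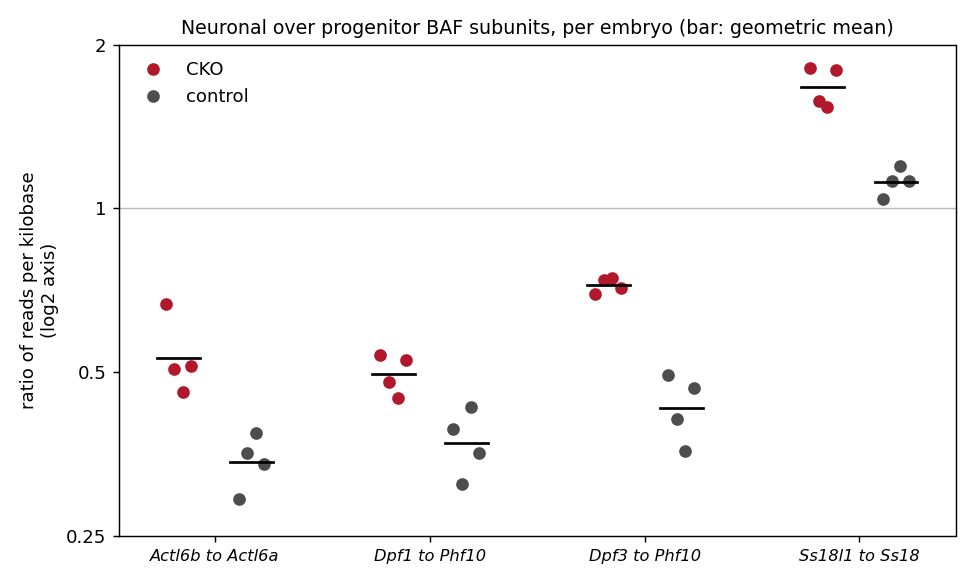
Ratio of reads per kilobase of a neuronal BAF subunit to its progenitor counterpart in each CKO and control embryo, on a log2 axis, with a bar at the geometric mean of 4 embryos. All 4 ratios are higher in every CKO sample than in any control, and the closest approach is 0.448 in CKO to 0.432 in control for *Dpf1* to *Phf10*.

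Neuron markers rose over the same samples, and the neuronal subunits were therefore also set against them. Per 1000 normalized counts of the 14 summed neuron markers, *Actl6b* (6.96 to 8.32 in CKO, 6.26 to 7.90 in control), *Dpf1* (4.81 to 5.71 in CKO, 5.41 to 5.84 in control) and *Ss18l1* (8.58 to 9.11 in CKO, 8.81 to 9.37 in control) overlapped between the genotypes. *Dpf3* did not overlap, with 5.75 to 6.29 in CKO and 3.80 to 5.72 in control, although the groups nearly touched and control replicate 3 was far below the other controls. The part of the neuron markers in the BAF differences was not tested.

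**Figure D4:**
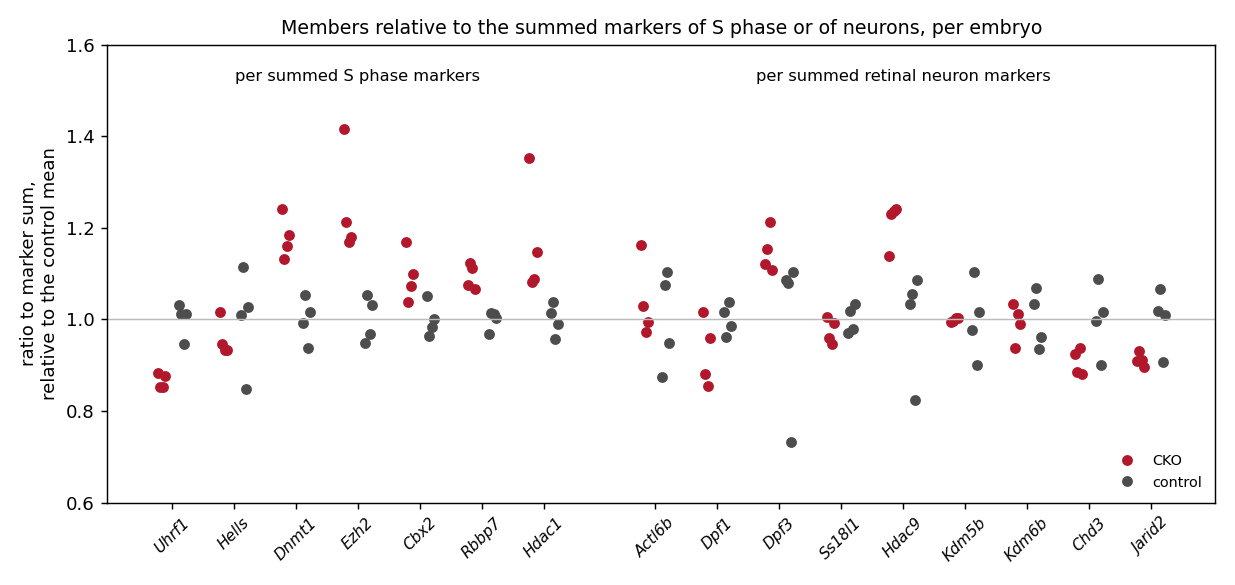
Normalized counts of selected members divided by the summed S phase genes (left) or neuron markers (right) of the same sample, each scaled to its control mean, in CKO and control embryos. Relative to the summed S phase genes, *Uhrf1* remains below the controls and *Hells* overlaps. Relative to the summed neuron markers, *Hdac9* remains above the controls, while *Kdm5b* and *Kdm6b* overlap.

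Among the shared subunits, *Arid1b*, a DNA-binding subunit, had the smallest p, with 3313, 3599, 3590 and 3650 normalized counts in the CKO and 3026, 2995, 2764 and 3145 in controls. The groups did not overlap, at 3538 ± 152 in CKO and 2982 ± 159 in control (log2FC 0.25, SE 0.05, edgeR adjusted p = 0.00371). *Smarcc2*, a scaffold subunit, had 6098 to 7591 in CKO and 5139 to 5801 in control retinas (log2FC 0.29, adjusted p = 0.016), whereas its paralog *Smarcc1* overlapped (5127 to 5478 in CKO, 4943 to 5684 in control, log2FC -0.02). The ATPases *Smarca4* (10260 to 11490 in CKO, 9509 to 9989 in control, log2FC 0.14) and *Smarca2* (732 to 769 in CKO, 626 to 708 in control, log2FC 0.17) were slightly above the controls in every CKO sample with adjusted p-values of 0.0569 and 0.0416. *Smarcb1*, *Smarcd1*, *Smarcd3* and *Arid1a* overlapped, with log2FC values of -0.01, 0.12, 0.10 and 0.12. *Smarcd3* has 5120 exonic bases, and its overlaps with *Chpf2* and *Mir671* on the opposite strand sum to 2564. Reads there cannot be assigned in unstranded libraries. By length-corrected level, *Smarca4* exceeded *Smarca2* in both genotypes, with 434 ± 16.1 and 13.9 ± 0.22 TPM in the CKO and 391 ± 10.2 and 12.2 ± 0.92 in controls.

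**Figure D5:**
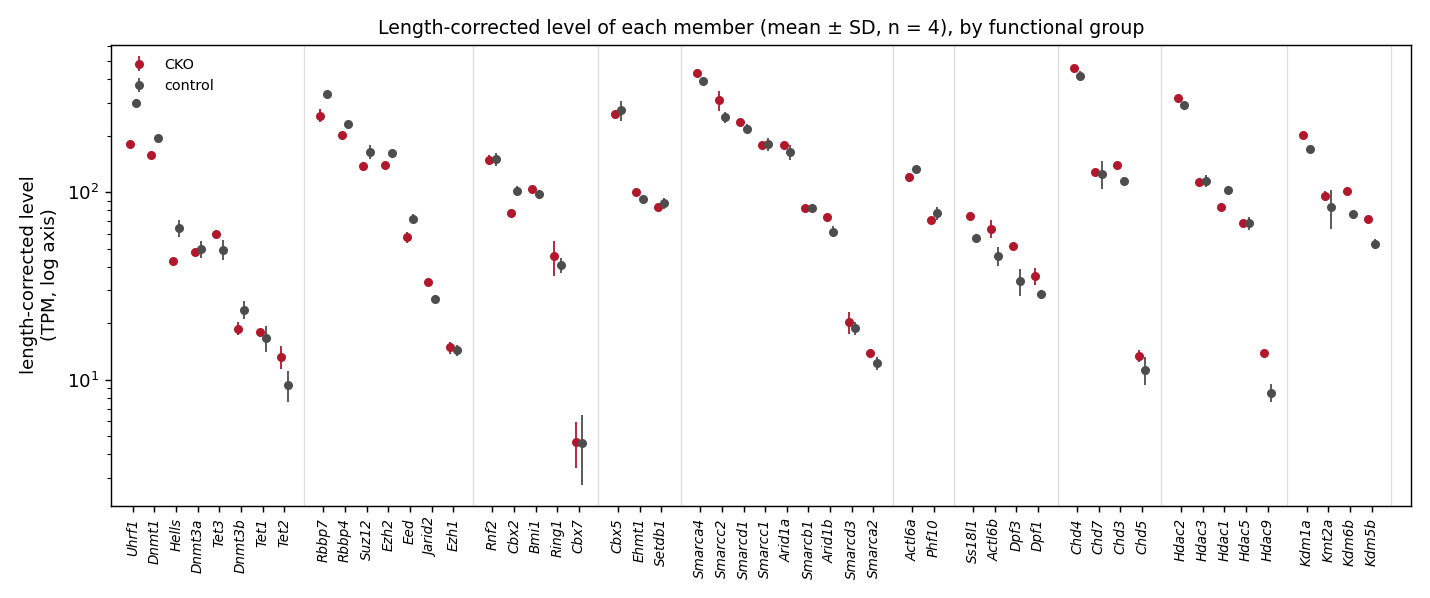
Length-corrected level of each member in TPM (mean ± SD, n = 4, log axis), in CKO and control retinas, grouped by function and ordered within a group by the control level. *Chd4* and *Smarca4* are the most abundant members in both genotypes, at 457 and 434 in CKO and 417 and 391 in control, and *Cbx7* the least, at 4.67 and 4.63.

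In the CHD family of remodelers, 1 of 4 members rose and 3 did not pass (median log2FC 0.19). *Chd3*, an ATPase of the NuRD deacetylase complex, had 4597, 4482, 4453 and 4464 normalized counts in the CKO and 3656, 3811, 3543 and 3817 in controls. The genotypes did not overlap and each was tightly grouped, at 4499 ± 66.4 in CKO and 3707 ± 132 in control, so that a log2FC of 0.28 passed (SE 0.05, edgeR adjusted p = 8.4e-04). Its paralog *Chd4*, the most abundant member, overlapped (13270 to 14820 in CKO, 12170 to 13720 in control, log2FC 0.13, interval 0.001 to 0.26), as did the neuron-enriched *Chd5* (448 to 509 in CKO, 319 to 475 in control, log2FC 0.25, adjusted p = 0.109). *Chd7*, the gene mutated in CHARGE syndrome, also overlapped, with 6505 to 7028 in CKO and 5079 to 7219 in control, where control replicate 3 was far below the rest.

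Of 5 histone deacetylases, 1 rose, 1 fell and 3 did not pass (median log2FC 0.00). *Hdac9*, a class IIa deacetylase, had the largest rise of all 51, with 733, 806, 761 and 815 normalized counts in the CKO, against 492, 479, 420 and 529 in controls. The lowest CKO sample was well above the highest control, at means of 779 ± 38.6 in CKO and 480 ± 45.1 in control and a log2FC of 0.70 (SE 0.07, edgeR adjusted p = 4.6e-05). Per 1000 neuron marker counts *Hdac9* also lay above the controls (5.23 to 5.70 in CKO, 3.79 to 4.99 in control). Single neuron markers ran from 0.06 to 0.59 in log2FC (median 0.45). The highest, that of *Dcx*, lies within the *Hdac9* interval of 0.54 to 0.86. *Hdac1*, a class I enzyme of the NuRD and Sin3 complexes that is prominent in dividing progenitors, had 1136, 1050, 1082 and 1119 in the CKO and 1432, 1362, 1337 and 1330 in controls. It fell without overlap, at 1097 ± 38.5 in CKO and 1365 ± 46.6 in control (log2FC -0.31, SE 0.05, edgeR adjusted p = 8.4e-04), although per 1000 summed S phase counts it was above the controls (42.2 to 52.7 in CKO, 37.3 to 40.5 in control). Its close paralog *Hdac2* lay slightly the other way, with 5262 to 5695 in CKO, 4785 to 5214 in control (log2FC 0.11, adjusted p = 0.0898). Class I *Hdac3* and class IIa *Hdac5* overlapped, at 1712 to 1843 and 2214 to 2408 in the CKO and 1579 to 1955 and 2139 to 2664 in controls.

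Of 4 enzymes of histone H3 methylation outside the complexes above, 2 rose and 2 did not pass (median log2FC 0.33). *Kdm5b*, which removes methyl groups from H3K4, had 4513, 4606, 4351 and 4637 normalized counts in the CKO and 3277, 3532, 3234 and 3486 in controls. The groups were well separated, at 4527 ± 129 in CKO and 3383 ± 149 in control, with a log2FC of 0.42 (SE 0.05, edgeR adjusted p = 7.8e-05). *Kdm6b*, which removes the H3K27 methylation placed by PRC2, had 2821, 2609, 2636 and 2759 in the CKO and 2086, 2058, 2021 and 1985 in controls. It rose by nearly the same amount without overlap, at 2706 ± 101 in CKO and 2037 ± 44.2 in control (log2FC 0.41, SE 0.05, edgeR adjusted p = 7.9e-05), and it shares 286 exonic bases with *Kdm6bos* on the opposite strand. Relative to neuron markers both overlapped, with 32.2 to 32.5 per 1000 in CKO and 29.2 to 35.7 in control for *Kdm5b*, and 18.3 to 20.1 in CKO and 18.2 to 20.8 in control for *Kdm6b*. *Chd3* and *Jarid2* overlapped on this scale as well, at 31.2 to 33.3 and 8.67 to 9.0 in CKO and 32.0 to 38.6 and 8.76 to 10.3 in control. *Kdm1a* (3855 to 4072 in CKO, 3255 to 3610 in control, log2FC 0.24, adjusted p = 0.00248), an H3K4 demethylase, was above every control without passing, although it passed without control replicate 3 and with DESeq2. The H3K4 methyltransferase *Kmt2a* overlapped (5742 to 6437 in CKO, 3745 to 6246 in control, log2FC 0.20, adjusted p = 0.281).

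Control replicate 3 held the lowest control value in 25 of the 51 members, beside 33.2% of all genes tested, and CKO replicate 1 held the lowest CKO value in 25, beside 43.3%. Of the 51, 20 overlap exons of a gene on the opposite strand, and among those that passed these are *Rbbp7* and *Kdm6b*.

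Other genes of the same pathways were counted from lists written by general knowledge, none of them members. Of 109 such genes, 108 were in the table and 105 were tested, of which 5 rose, 4 fell and 96 did not pass (median log2FC 0.06), shares that can be read against the 3.64% and 4.97% of all genes given above. Among 9 tested genes of DNA methylation, *Gadd45g* rose (317 to 339 normalized counts in CKO, 102 to 131 in control, log2FC 1.44, edgeR adjusted p = 9.4e-07) and *Gadd45a* fell (1137 to 1208 in CKO, 1925 to 2108 in control, log2FC -0.82, adjusted p = 9.4e-07). Both are stress-responsive proteins with a proposed role in DNA demethylation, and *Gadd45g* is also known as a gene of cells that leave the cell cycle in neurogenesis. *Mbd2*, which binds methylated CpG, fell as well (614 to 650 in CKO, 791 to 900 in control, log2FC -0.40, adjusted p = 3.1e-04). Among 21 Polycomb genes, *Kdm2b*, of a variant PRC1, rose (1561 to 1666 in CKO, 1326 to 1383 in control, log2FC 0.27, adjusted p = 7.8e-04) and *Pcgf5* fell (121 to 154 in CKO, 179 to 237 in control, log2FC -0.72, adjusted p = 8.5e-04). *Bcl11a* alone of 16 other BAF and PBAF genes passed, and it rose (1088 to 1189 in CKO, 812 to 926 in control, log2FC 0.44, adjusted p = 1.7e-04). None of 15 CHD and NuRD genes or 13 deacetylase and sirtuin genes passed the edgeR test, and DESeq2 called 2 and 0. At an unadjusted edgeR p below 0.05 there were 5 higher and 2 lower among the 15, and 3 higher and 1 lower among the 13. That cutoff is loose, since at least 6008 of the 13891 genes tested fell below it, and these counts do not set the lists apart. Of 31 genes of histone methylation, the demethylases *Kdm7a* (2452 to 2761 in CKO, 1313 to 1937 in control, log2FC 0.65, adjusted p = 7.3e-04) and *Kdm4b* (2099 to 2386 in CKO, 1617 to 1795 in control, log2FC 0.41, adjusted p = 2.6e-04) rose, and the H3K9 methyltransferase *Suv39h1* fell (956 to 1024 in CKO, 1209 to 1292 in control, log2FC -0.32, adjusted p = 3.8e-04). The genotypes did not overlap in any of these 9 genes.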

How the data were processed

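RNA was measured in 8 samples, 4 CKO and 4 control, grouped by their labels. The authors aligned reads to mm10 with TopHat 2 and deposited raw counts per gene made with HTSeq. HTSeq version, strand setting and annotation release: not given in the sources used here. These libraries were unstranded poly(A), 50 cycle single-end. All columns of the table were used. The study's filter was applied: a gene needed 20 or more normalized counts in 3 or more samples. Tests used the edgeR 4.0.16 quasi-likelihood test (R 4.3.3) with TMM scaling on all 13891 genes, Benjamini-Hochberg adjustment over all of them and a cutoff of 0.001; the script was tested on simulated data. Normalized counts are counts over median-of-ratios size factors. Log2 ratios of read counts added 0.5 and were compared by exact permutation of samples. Exon lengths and overlaps came from GENCODE M21 (GRCm38), in which 28232 of 28432 gene IDs were found. Total counts were 13143587 to 19099937 per sample, which keeps counting error small for most members. Replicates within a genotype differed beyond sampling noise (chi-square per gene 3.42 to 19.1), so each counted as 1 sample. The litter (3) and day (2) of each embryo, unknown here, could not enter a test. Pathway genes were matched by symbol, 8 of them through the gene ID under an older symbol. Members and gene lists were chosen with earlier results of these data known. Every member was named; values per sample were given for up to 3 called members per group with the smallest p, all progenitor and neuronal BAF subunits, and the smallest p in groups with no call. Alternatives were DESeq2 1.42.0, limma 3.58.1 voom, other scalings and filters, a cutoff of 0.05, a replicate block, embryo sex and leaving out each sample.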

Additional observations from a re-analysis of the deposited data

Results flagged for a closer look

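Within a genotype, 8 of 110 sets of 4 values (51 members and 4 BAF ratios in each genotype) held a sample far from the other 3 by Dixon's test at 95%; chance alone would mark about 1 in 20, or 5.5. None of the 8 concerns a member that passed the test. Control replicate 3 was low for *Dnmt3a* (2747, others 3291 to 3389) and *Chd7* (5079, others 6893 to 7219). CKO replicate 4 was low for *Chd5* (448.2, others 500.5 to 508.7) and high for *Hdac3* (1843, others 1712 to 1728). *Smarcc2* was high in CKO replicate 1 (7591, others 6098 to 6329) and in control replicate 2 (5801, others 5139 to 5219). *Smarcb1* was low in CKO replicate 3 (2406, others 2517 to 2530), and *Smarcd3* was high in control replicate 1 (409.8, others 352.4 to 361.4).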

How the results depend on the processing

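Counts of calls moved with the setting. With DESeq2, 11 members were higher and 9 lower, all genes gave 1052 and 1219, and other chromatin genes 9 and 6; with no expression filter, all genes gave 964 and 1091. At an adjusted p below 0.05 the counts were 15 and 12 for members, 2207 and 2412 for all genes, and 20 and 14 for other chromatin genes. Leaving out 1 sample gave 3 to 9 members higher and 2 to 7 lower, 264 to 707 and 422 to 846 of all genes, and 1 to 5 and 1 to 5 other chromatin genes. Voom, other scalings and filterByExpr gave 5 to 7 members higher and 5 to 6 lower.

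Same-numbered CKO and control samples did not deviate together (r = 0.154, -0.152, 0.081 and -0.113 for replicates 1 to 4). The numbers were not taken as pairs in the main test. Such correlations cannot show whether embryos shared a litter or a day. With the replicate number as a block, 3 members were higher and 2 lower, 272 and 404 of all genes, and 3 and 1 other chromatin genes; the BAF log2 ratio differences stayed 0.636, 0.423, 0.753 and 0.582, each with p = 0.125, the smallest an exact test of 4 pairs can give. Without 1 sample these differences ranged over 0.527 to 0.705 (*Actl6b* to *Actl6a*), 0.34 to 0.497 (*Dpf1* to *Phf10*), 0.666 to 0.821 (*Dpf3* to *Phf10*) and 0.545 to 0.624 (*Ss18l1* to *Ss18*).

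Direction turned only in members that were not called: *Cbx7* with library totals (-0.02) and with sex (-0.014), and *Hdac5* with voom and with the block (0.003 each). Without 1 sample, their log2FC ran over -0.132 to 0.323 for *Cbx7*, -0.006 to 0.229 for *Ring1*, -0.055 to 0.031 for *Rnf2*, -0.036 to 0.028 for *Smarcb1*, -0.055 to 0.012 for *Smarcc1*, -0.068 to 0.094 for *Chd7*, -0.083 to 0.016 for *Hdac3* and -0.028 to 0.072 for *Hdac5*. The cause of these changes was not tested. With 4 embryos per genotype small differences are hard to detect, and *Cbx7*, at about 115 normalized counts, is the member least well measured.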
